A study of Homo sapiens with 18 samples.

Results

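Integrins are receptors that hold a cell to its matrix, and each is a pair of 1 α and 1 β subunit. The 10 subunit genes described here are ITGA2, ITGA3, ITGA5, ITGA6, ITGA10, ITGAV, ITGB1, ITGB3, ITGB4 and ITGB5, of 26 human integrin genes and 60642 symbols in the count files. They were chosen by name, in part on measured values: ITGA10 was selected as one of the genes that rose most with dexamethasone, in cells that are not stated, so all its values are given with no test. All 10 had enough counts to be tested. The cells were MDA-MB-231, an established human triple-negative breast cancer line, and their RNA was read by bulk RNA sequencing. They had received siRNA against PRMT5 (siPRMT5), against HP1γ, the product of CBX3 (siHP1g), or a non-specific siRNA (siNS). Each was then given 100 nM dexamethasone (Dex), a synthetic glucocorticoid, or the same volume of its ethanol vehicle (Eth) for 8 h. The 6 groups, siNS Eth, siNS Dex, siHP1g Eth, siHP1g Dex, siPRMT5 Eth and siPRMT5 Dex, held 3 libraries each, with 8682992 to 12472381 counts per library (median 10020976.5). The study calls its replicates biological, but neither it nor the labels say whether they were separate cultures, so the p-values measure the spread between these samples.

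The α subunit largely sets the ligand. ITGA2 and ITGA10 pair with ITGB1 to bind collagens, ITGA3 and ITGA6 pair with it to bind laminins, and ITGA5 pairs with it to bind fibronectin. ITGAV pairs with several β subunits, ITGB3 and ITGB5 among them, on ligands such as vitronectin, while ITGB4 pairs with ITGA6 alone in hemidesmosomes. Dex acts through the glucocorticoid receptor (GR, gene NR3C1), a transcription factor, and the study asked how PRMT5, an arginine methyltransferase, and HP1γ, a chromatin protein, bear on the GR response. Integrins are of interest in this line because adhesion to matrix is part of migration and invasion.

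The siRNA labels held in the counts. PRMT5 stood at 249 ± 19.9 CPM (the count scaled to library size with TMM factors; mean ± SD, n = 3) in siNS Eth and at 7.41 ± 1.17 CPM in siPRMT5 Eth, and CBX3 stood at 256 ± 20.1 CPM in siNS Eth and at 9.89 ± 0.658 CPM in siHP1g Eth. Of the line's markers, VIM (5440 to 9590 CPM), CD44 (506 to 857 CPM), EGFR (114 to 264 CPM) and NR3C1 (116 to 186 CPM) were present in all 18 libraries. AXL, a receptor kinase of mesenchymal cancer cells, was present too, but its mean was 963 ± 46.5 CPM in siNS Eth and 221 ± 9.1 CPM in siPRMT5 Eth. ESR1, PGR and CDH1 had at most 2 counts in any library, and ERBB2 (24.5 to 36 CPM) and EPCAM (8.57 to 14 CPM) were low. Of 11 markers of other cells, PF4 and LUM had 0 counts in all 18 libraries, PTPRC, CD3E and DCN had at most 2, ITGA2B at most 5, and PDGFRA, CDH5 and VWF at most 7. The leukocyte gene CD14 had 1 to 11 counts. The 3 leukocyte markers summed to 0.157 to 1.17 CPM and the 3 fibroblast markers to 0 to 0.74 CPM over all libraries. The endothelial gene PECAM1 was the most abundant of the 11, with 10 to 81 counts and means of 1.29 ± 0.175 CPM in siNS Eth, 4.14 ± 0.339 in siNS Dex, 3.25 ± 0.48 in siPRMT5 Eth and 6.82 ± 1.25 in siPRMT5 Dex, an order that ITGA10 shared over these 4 groups. The 3 endothelial markers summed to 1.99 to 2.75 CPM in siNS Eth, 4.47 to 5.26 in siNS Dex, 2.61 to 3.61 in siHP1g Eth, 3.7 to 4.89 in siHP1g Dex, 2.9 to 4.46 in siPRMT5 Eth and 6.26 to 8.26 in siPRMT5 Dex, with PECAM1 the most abundant. That order did not extend to siHP1g Dex. ITGA10 had a higher mean there than in siNS Dex (15.7 against 11.7 CPM), while the middle endothelial sum was lower (4.5 against 4.95 CPM), with overlapping ranges. Whether other cells had a part in any integrin value was not tested.

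One library stood furthest apart from its replicates. The squared difference between replicates, over that from counting alone, was 6.8 and 11.3 for siHP1g Dex replicate 1 against replicates 2 and 3, and 3.03 between those. For siPRMT5 Dex replicate 2 it was 6.67 and 5.12 against replicates 1 and 3, and 3.65 between those. Between siNS Eth replicates 1 and 2 it was 5.98. Over all groups it ran from 2.01 to 11.3, the highest value being that of siHP1g Dex replicate 1 against replicate 3. Integrin and list contrasts that use siHP1g Dex are for the most part given with and without siHP1g Dex replicate 1.

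The depleted genes themselves differed between treatments. PRMT5 stood at 8.37, 7.75 and 6.1 CPM in siPRMT5 Eth and 11.5, 10.6 and 9.39 CPM in siPRMT5 Dex, and CBX3 at 9.225, 9.913 and 10.54 CPM in siHP1g Eth and 15.8, 14 and 11.4 CPM in siHP1g Dex, each with all Dex libraries above all Eth libraries. The highest CBX3 value was that of siHP1g Dex replicate 1. By edgeR's quasi-likelihood test with Benjamini-Hochberg adjustment, the remaining PRMT5 was higher with Dex by log2 0.52 (adjusted p = 0.00634) in siPRMT5 cells and the remaining CBX3 by log2 0.48 (adjusted p = 0.0273) in siHP1g cells, both short of the limits used for Dex (adjusted p under 0.01 and 1.5-fold). Leaving out siPRMT5 Eth replicate 1 (adjusted p = 0.00476) or siPRMT5 Dex replicate 3 (0.00478) brought the PRMT5 rise past both limits, and leaving out siHP1g Dex replicate 3 the CBX3 rise (0.00537). With siHP1g Dex replicate 1 left out the CBX3 rise was log2 0.36 (adjusted p = 0.194). The PRMT5 response in siPRMT5 cells differed from that in siNS cells by log2 0.57 (adjusted p = 0.0297) and from that in siHP1g cells by 0.67 (adjusted p = 0.0133). The former call ended without siNS Eth replicate 3 (adjusted p = 0.0668), siNS Dex replicate 3 (0.0674), siPRMT5 Eth replicate 2 (0.0543) or 3 (0.102), or siPRMT5 Dex replicate 1 (0.088) or 2 (0.0743), and the latter without siPRMT5 Eth replicate 3 (0.0879) or siPRMT5 Dex replicate 1 (0.0548). The CBX3 response in siHP1g cells differed from that in siNS cells by log2 0.63 (adjusted p = 0.068), which did not pass. It passed by DESeq2 (adjusted p = 0.0161), with no filter on low counts (0.00679), with only the libraries of the contrast fitted (0.044), and without siNS Eth replicate 2 (0.0315), siHP1g Dex replicate 3 (0.0208), or siPRMT5 Dex replicate 2 (0.0429) or 3 (0.0484). It was 0.51 (adjusted p = 0.201) without siHP1g Dex replicate 1. Both genes stayed well below siNS cells with Dex, PRMT5 22.7-fold and CBX3 16.7-fold lower. PRMT5 was also lower in siHP1g than in siNS cells, in groups that did not overlap. The difference was log2 −0.25 (adjusted p = 0.0111) with Eth and −0.35 (adjusted p = 0.00123) with Dex. CBX3 in siPRMT5 against siNS cells did not pass (adjusted p = 0.0717 with Eth and 0.12 with Dex). Whether these differences in PRMT5 and CBX3 had a part in any integrin value of depleted cells, or in its response to Dex, was not tested.

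**Figure D1:**
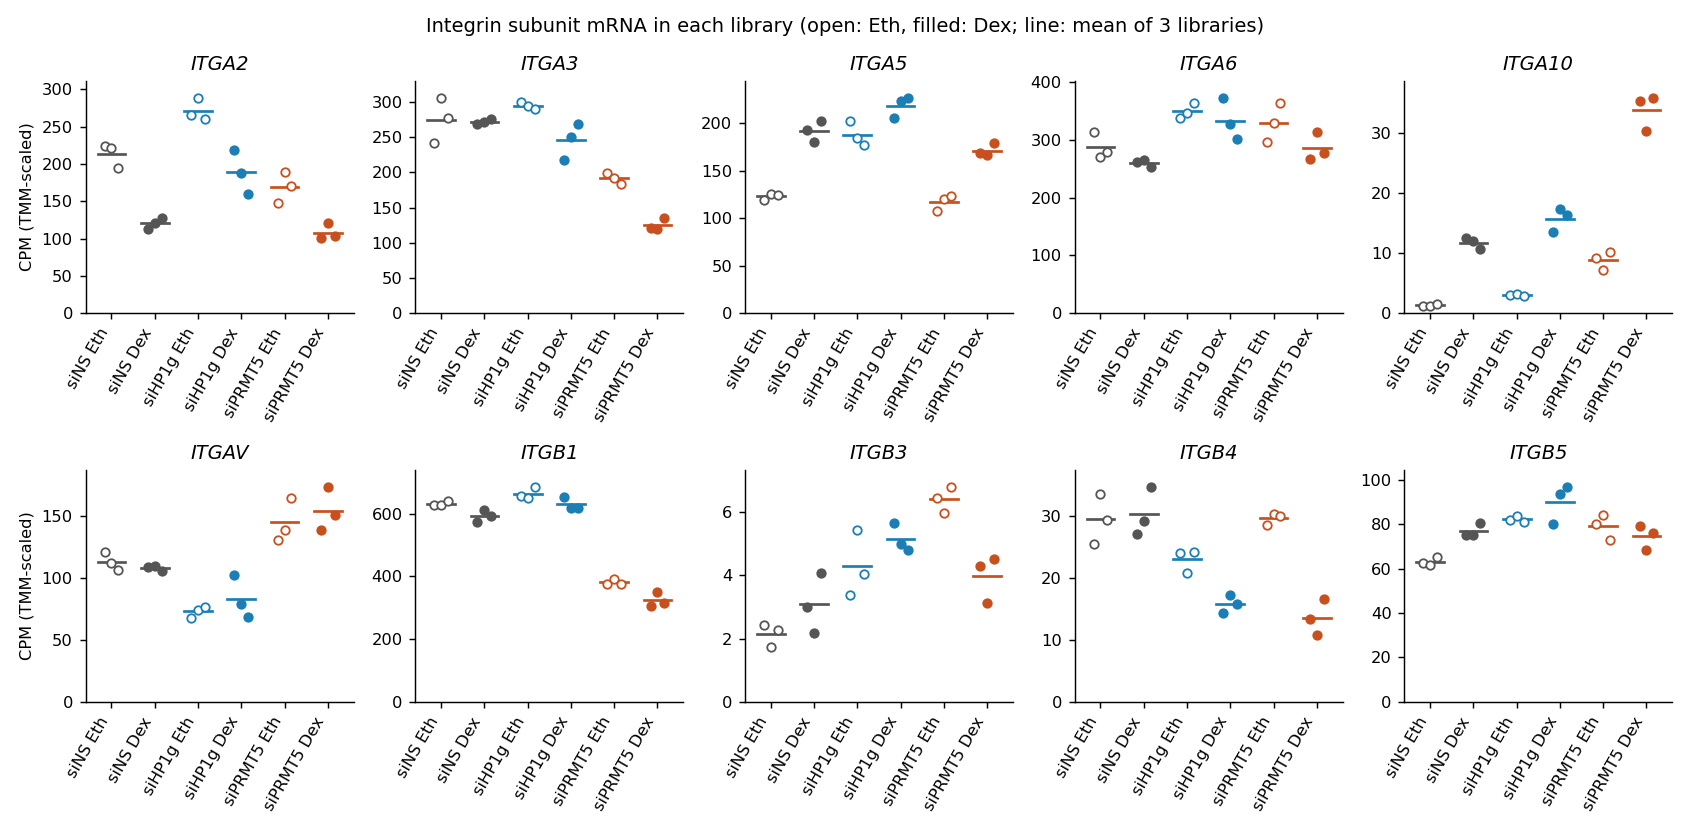
CPM of the 10 integrin subunits in each of the 18 libraries (vertical axis, starting at 0), by siRNA and treatment (horizontal axis); open points are Eth, filled points Dex, and lines are means of 3 libraries. ITGA10 was highest in siPRMT5 Dex, at 30.3 to 35.8 CPM, and ITGB1 was lower in all 6 siPRMT5 libraries than in the other 12.

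Per kb of merged exon, ITGB1, the common partner of the laminin and collagen receptors, shared the highest level with ITGA6 in siNS Eth. Levels of different genes were compared as CPM per kb of the gene's merged exons, an order that would not hold had the kit read 3′ ends alone, which the labels do not say. Merged exons join all annotated transcripts, 14.56 kb for ITGB1 against 6.68 kb for ITGA6. Which transcripts the cells made was not measured, so the order by transcript may differ. Before division by length, ITGB1 had more CPM than ITGA6 in every library. In siNS Eth, ITGB1 (43.4 CPM per kb) and ITGA6 (43.1) overlapped at the top, followed by ITGA3 (28) and ITGA2 (27), which also overlapped. ITGA5 (16.7), ITGB5 (9.66), ITGAV (5.86) and ITGB4 (4.35) came next, each apart from its neighbours. ITGB3 (0.314) and ITGA10 (0.208) were the lowest. On this per-kb scale ITGA6 led, apart from ITGB1, in siHP1g Eth (52.3 against 45.6), siHP1g Dex (50 against 43.3) and siPRMT5 Eth (49.4 against 26.2). In siPRMT5 Dex, which differs from siNS Eth in both siRNA and treatment, ITGA6 (42.8) led too. ITGA5 (23.2) and ITGB1 (22.3) overlapped behind it, and ITGA10 (5.42) stood above ITGB4 (2.01). ITGA2 (13.7) and ITGA3 (12.8) overlapped there, and ITGB3 (0.583) was last. The 15 integrin genes that could be tested summed to 1810 ± 21.5 CPM in siNS Eth and 1380 ± 64.2 CPM in siPRMT5 Dex (n = 3 each). Of that sum ITGB1 made up 34.9% in siNS Eth and 23.5% in siPRMT5 Dex, and ITGA10 0.0715% and 2.47%.

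**Figure D2:**
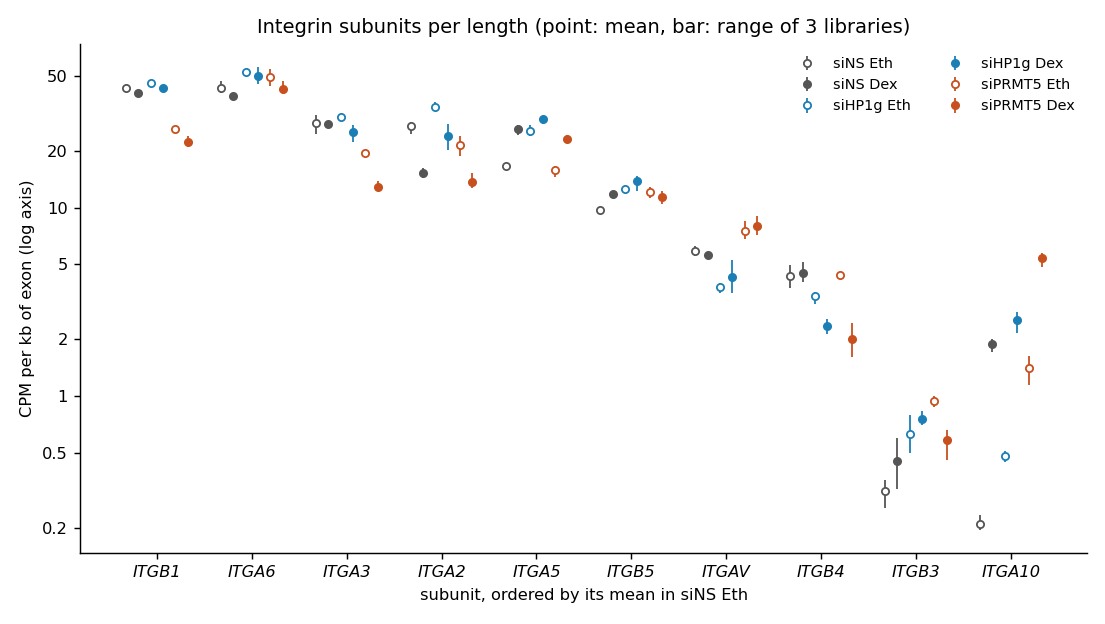
Level of each subunit in CPM per kb of merged exon (vertical log axis), for the 10 subunits in the order of their siNS Eth means (horizontal axis); points are means and bars the range of 3 libraries per group. ITGB1 (43.4) and ITGA6 (43.1) overlapped at the top in siNS Eth, and ITGA10 was lowest at 0.208 CPM per kb.

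ITGA10 encodes the α subunit of a collagen receptor known best from cartilage, and lies at chr1:145891208-145910111 (hg38, minus strand). It had 11, 12 and 14 counts in siNS Eth, or 1.21, 1.22 and 1.45 CPM, against 12.4, 12.1 and 10.7 CPM in siNS Dex. The siHP1g libraries gave 2.97, 3.18 and 2.79 CPM with Eth and 13.5, 17.4 and 16.4 CPM with Dex. The siPRMT5 libraries gave 9.23, 7.16 and 10.1 CPM with Eth and 35.4, 30.3 and 35.8 CPM with Dex. Every Dex library was above every Eth library of its own siRNA, and no siPRMT5 library overlapped a siNS or siHP1g library of the same treatment. As a description, since a rise with Dex chose it, ITGA10 was 8.98-fold higher with Dex in siNS cells (log2 fold change 3.17, SE 0.201), at place 15 among the 15298 genes tested when ordered by rise. It was 2.28-fold higher in siHP1g Eth and 6.79-fold higher in siPRMT5 Eth than in siNS Eth. The rise with Dex was 5.24-fold in siHP1g cells (log2 2.39, SE 0.158) and 3.79-fold in siPRMT5 cells (log2 1.92, SE 0.124). The siPRMT5 and siHP1g responses differed by log2 −0.47 (SE 0.212). ITGA10 stood higher in siPRMT5 than in siHP1g cells, by log2 1.57 (SE 0.176) with Eth and 1.11 (SE 0.112) with Dex. Leaving out siHP1g Dex replicate 1 gave a siHP1g response of log2 2.503 (SE 0.161), with the difference between responses at −0.57 (SE 0.208) and that between siPRMT5 and siHP1g cells with Dex at 1.002 (SE 0.117). These libraries may have had a part in the choice, so no p-value is given for any of them. RNA was read in bulk, so more cells with ITGA10 RNA and more of it per cell cannot be told apart.

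Start windows of ITGA10 and ITGA6 are shown because GR binds repeats of the 6 letters AGAACA, or TGTTCT on the other strand, and 2 of the 12 start windows that RefSeq gives for 7 members hold these letters. ITGA2, ITGA5, ITGA6, ITGA10, ITGAV, ITGB1 and ITGB5 were in the RefSeq table (GRCh38.p14), and ITGA3, ITGB3 and ITGB4 were not. The ITGA10 window is chr1:145910112-145910300 (hg38, minus strand), the 189 bases just before the annotated gene, and holds the letters 1 time. The ITGA6 window is chr2:172427086-172427335 (hg38, plus strand), 250 bases before a RefSeq start, and holds them 2 times. Capitals mark the 6 letters, and both runs read 5′ to 3′ on the gene's strand.
ITGA10: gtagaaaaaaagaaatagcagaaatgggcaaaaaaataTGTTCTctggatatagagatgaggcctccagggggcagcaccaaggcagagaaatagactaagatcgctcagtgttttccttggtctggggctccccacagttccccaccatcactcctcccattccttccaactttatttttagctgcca
ITGA6: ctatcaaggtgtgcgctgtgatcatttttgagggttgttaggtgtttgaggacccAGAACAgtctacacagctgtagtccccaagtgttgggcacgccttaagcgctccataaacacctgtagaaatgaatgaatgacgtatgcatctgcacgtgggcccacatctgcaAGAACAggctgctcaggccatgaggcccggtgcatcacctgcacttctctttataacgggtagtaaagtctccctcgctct
Of all 35116 RefSeq start windows, 12.4% hold these letters in the 250 bases before the start. The longer motif GNACANNNTGTNC, the spaced pair of GR sites, was looked for on the genome within 10 kb of each member's annotated start, where 22.8% of 20033 protein-coding starts have it. It lay at chr12:54424872-54424884, at −5612 from the start of ITGA5 (minus strand), and at chr2:172426083-172426095, at −1265 from that of ITGA6 (plus strand), and near none of the other 8 members, ITGA10 among them. The motif is in capitals with 8 bases on each side, on the gene's strand.
ITGA5: aaggagagGGACATGCTGTGCcccatccc
ITGA6: tctgagtgGCACATGCTGTTCtcttgaat
A match is a description of the letters and not of binding, which was not measured here.

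ITGA2, the α subunit of another collagen receptor (chr5:52989340-53094779, hg38, plus strand), was lower with Dex where ITGA10 was higher. It stood at 224, 222 and 194 CPM in siNS Eth and 113, 120 and 128 CPM in siNS Dex. With siHP1g it was at 266, 288 and 260 CPM under Eth and 219, 188 and 160 CPM under Dex. With siPRMT5 it was at 148, 189 and 171 CPM under Eth and 100, 121 and 103 CPM under Dex. Under each siRNA all Dex libraries were below all Eth libraries. The change in siNS cells was log2 −0.82 (1.77-fold, no test). Dex lowered ITGA2 1.56-fold in siPRMT5 cells (log2 −0.64, SE 0.102, adjusted p = 3.41e-05). Without siPRMT5 Eth replicate 2 or siPRMT5 Dex replicate 1 that change was −0.56 or −0.58, under the 1.5-fold limit used for Dex. In siHP1g cells the difference was log2 −0.52 (SE 0.0985, adjusted p = 0.000944), under that limit, and without siHP1g Dex replicate 1 it was 1.55-fold (log2 −0.64, adjusted p = 5.08e-05, range over all alternatives 8.07e-09 to 0.0107). HP1γ depletion raised ITGA2, by log2 0.35 (adjusted p = 0.0083) with Eth and 0.65 (adjusted p = 2.69e-05) with Dex. PRMT5 depletion lowered it with Eth, by log2 −0.34 (adjusted p = 0.00831), and with Dex the difference was −0.16 (adjusted p = 0.231), which did not pass. Leaving out siNS Eth replicate 3 ended the HP1γ call with Eth (log2 0.27, adjusted p = 0.0825, range 0.000115 to 0.0825), and leaving out siPRMT5 Eth replicate 1 ended the PRMT5 call (log2 −0.25, adjusted p = 0.0698, range 0.000352 to 0.0698). Between the depletions ITGA2 was lower in siPRMT5 than in siHP1g cells, by log2 −0.68 (adjusted p = 3.2e-06) with Eth and −0.81 (adjusted p = 3.03e-07) with Dex. The latter was −0.68 without siHP1g Dex replicate 1, and the rise with HP1γ depletion and Dex was 0.53, both still called.

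ITGA3, a laminin receptor α subunit (chr17:50055968-50090481, hg38, plus strand), was low in siPRMT5 cells and lowest there with Dex. It stood at 242, 305 and 278 CPM in siNS Eth and 269, 272 and 275 CPM in siNS Dex. In siHP1g cells it stood at 301, 294 and 290 CPM with Eth and 218, 250 and 269 CPM with Dex. In siPRMT5 cells the values were 199, 192 and 184 CPM with Eth and 121, 120 and 135 CPM with Dex. The siNS Dex libraries lay inside the range of siNS Eth (log2 −0.01, no test), while all siPRMT5 Dex libraries were below all siPRMT5 Eth libraries. Dex lowered ITGA3 1.53-fold in siPRMT5 cells (log2 −0.61, SE 0.0817, adjusted p = 2.76e-06). Without siPRMT5 Dex replicate 1 or 2 this was −0.58 or −0.57, under the 1.5-fold limit. The response differed by test from that in siNS cells, by log2 −0.60 (SE 0.114, adjusted p = 0.00296), a call that all alternatives kept. The siHP1g response was log2 −0.26 (adjusted p = 0.0483), under the limit, or −0.18 (adjusted p = 0.28, range 0.0181 to 0.28) without siHP1g Dex replicate 1, and the difference of the full siHP1g group from the siPRMT5 response was −0.35 (adjusted p = 0.137). That difference passed without the same library (log2 −0.43, adjusted p = 0.0264, range 0.0264 to 0.339). PRMT5 depletion lowered ITGA3 by log2 −0.52 (adjusted p = 8.76e-06) with Eth and by −1.12 (adjusted p = 2.98e-11) with Dex, 2.17-fold. HP1γ depletion gave log2 0.10 (adjusted p = 0.358) and −0.15 (adjusted p = 0.183), neither past the test. Against siHP1g cells ITGA3 was lower in siPRMT5 cells by log2 −0.62 (adjusted p = 5.06e-07) with Eth and −0.97 (adjusted p = 2.71e-10) with Dex. Leaving out siHP1g Dex replicate 1 gave −1.05 for the latter and −0.07 for HP1γ depletion with Dex, with the same calls.

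ITGB4, whose long cytoplasmic tail ties hemidesmosomes to keratin filaments (chr17:75721328-75757818, hg38, plus strand), responded to Dex in siPRMT5 cells. It stood at 25.4, 33.5 and 29.3 CPM in siNS Eth and 27.1, 29.1 and 34.6 CPM in siNS Dex. The siHP1g libraries gave 24, 20.8 and 24.2 CPM with Eth and 14.4, 17.2 and 15.8 CPM with Dex. The siPRMT5 libraries gave 28.4, 30.3 and 30 CPM with Eth and 13.4, 10.8 and 16.5 CPM with Dex. The siNS groups overlapped (log2 0.04, no test), and under both depletions the Dex libraries were all below the Eth libraries. Dex lowered ITGB4 2.2-fold in siPRMT5 cells (log2 −1.14, SE 0.133, adjusted p = 3.62e-07). This response differed from that in siNS cells by log2 −1.18 (SE 0.18, adjusted p = 0.000372), in all alternatives. In siHP1g cells the response was log2 −0.54 (SE 0.131, adjusted p = 0.01), under the 1.5-fold limit, and its difference from siNS cells was −0.58 (adjusted p = 0.114), which passed with no filter on low counts (adjusted p = 0.0299, range 0.0299 to 0.291). The difference between the siPRMT5 and siHP1g responses was log2 −0.59 (adjusted p = 0.121), which passed without siPRMT5 Dex replicate 3 (−0.75, adjusted p = 0.04, range 0.04 to 0.349). With Dex, ITGB4 was lowered 1.92-fold by HP1γ depletion (log2 −0.94, adjusted p = 4.18e-06) and 2.26-fold by PRMT5 depletion (log2 −1.17, adjusted p = 7.34e-08). With Eth, HP1γ depletion lowered it by log2 −0.36 (adjusted p = 0.0293), and PRMT5 depletion gave 0.01 (adjusted p = 0.976). The HP1γ call with Eth ended without siNS Eth replicate 2 (adjusted p = 0.16), siNS Eth replicate 3 (0.0554) or siHP1g Eth replicate 2 (0.13) and with scaling by library size alone (0.0633), in a range of 0.00609 to 0.16. With Eth ITGB4 was higher in siPRMT5 than in siHP1g cells, by log2 0.36 (adjusted p = 0.0181), a call that ended without siHP1g Eth replicate 2 (0.30, adjusted p = 0.0912, range 0.00228 to 0.0912). With Dex the difference was log2 −0.23 (adjusted p = 0.176), and −0.38 (adjusted p = 0.0376, range 0.0376 to 0.701) without siPRMT5 Dex replicate 3. With siHP1g Dex replicate 1 left out, the siHP1g response was log2 −0.47 (adjusted p = 0.0607, range 0.000519 to 0.0641). The difference from the siNS response was then −0.51, and that of the siPRMT5 from the siHP1g response −0.66. HP1γ depletion with Dex gave −0.88 in that fit and siPRMT5 against siHP1g cells with Dex −0.29, with the same calls.

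ITGA6, the partner of ITGB4 and a laminin receptor subunit with ITGB1 (chr2:172427354-172506459, hg38, plus strand), stood between 254 and 372 CPM in all 18 libraries. Its means were 288 ± 23.6 CPM in siNS Eth and 260 ± 5.89 in siNS Dex (± SD, n = 3). In siHP1g cells the means were 350 ± 13.8 CPM with Eth and 334 ± 36 with Dex, and in siPRMT5 cells 330 ± 34.5 and 286 ± 24.9. No Dex response passed in the depleted cells, at log2 −0.07 (adjusted p = 0.746) in siHP1g and −0.21 (adjusted p = 0.106) in siPRMT5 cells. HP1γ depletion raised ITGA6, by log2 0.28 (adjusted p = 0.012) with Eth and 0.36 (adjusted p = 0.00255) with Dex. The call with Eth ended without siNS Eth replicate 2 (adjusted p = 0.0641), siNS Eth replicate 3 (0.0738) or siHP1g Eth replicate 3 (0.0603), in a range of 0.0016 to 0.0738. PRMT5 depletion gave log2 0.20 (adjusted p = 0.0624) with Eth and 0.14 (adjusted p = 0.203) with Dex. The former passed without siNS Eth replicate 1 (adjusted p = 0.0267), siHP1g Dex replicate 1 (0.0396) or siPRMT5 Eth replicate 1 (0.0197), with scaling by library size alone (0.0356) and with no filter on low counts (0.0373), in a range of 0.0197 to 0.327. With Dex ITGA6 was lower in siPRMT5 than in siHP1g cells by log2 −0.22 (adjusted p = 0.0297), although the groups overlapped. That call ended without siHP1g Dex replicate 1 (log2 −0.13, adjusted p = 0.199), siHP1g Dex replicate 2 (0.0501), siPRMT5 Dex replicate 1 (0.146) or siPRMT5 Dex replicate 3 (0.096), and with only the libraries of the contrast fitted (0.0803), in a range of 0.0043 to 0.199. The Dex response in siHP1g cells was log2 −0.15 without siHP1g Dex replicate 1, and HP1γ depletion with Dex gave 0.27, with the same calls.

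ITGA5, the α subunit of the classical fibronectin receptor (chr12:54395261-54419266, hg38, minus strand), stood higher with Dex under each siRNA, short of the Dex limits in both depleted groups. It stood at 119, 125 and 125 CPM in siNS Eth and 192, 180 and 203 CPM in siNS Dex. With siHP1g it was at 203, 184 and 177 CPM under Eth and 205, 223 and 226 CPM under Dex. With siPRMT5 it was at 108, 120 and 123 CPM under Eth and 168, 166 and 179 CPM under Dex. All siHP1g Eth libraries were above all siNS Eth libraries, and under each siRNA the Dex libraries were above the Eth libraries. The change with Dex in siNS cells was log2 0.64 (1.56-fold, no test). In siPRMT5 cells it was log2 0.55 (SE 0.0722, adjusted p = 2.39e-06), or 1.46-fold, just under the limit, and 1.51-fold without siPRMT5 Eth replicate 3. In siHP1g cells it was log2 0.22 (adjusted p = 0.0765), and 0.26 (adjusted p = 0.0387, range 0.0387 to 0.282) without siHP1g Dex replicate 1, still short of the Dex threshold. HP1γ depletion raised ITGA5 with Eth by log2 0.61 (SE 0.0719, adjusted p = 4.51e-07), and with Dex the difference was 0.19 (adjusted p = 0.055). The latter passed without siNS Dex replicate 3 (adjusted p = 0.048) or siHP1g Dex replicate 1 (log2 0.23, 0.0275), with scaling by library size alone (log2 0.27, 0.0052), with at least 10 counts asked of every library (0.0493) and by DESeq2 (0.044), in a range of 0.0052 to 0.255. The difference in Dex response between siHP1g and siNS cells was log2 −0.42 (SE 0.1, adjusted p = 0.0588) by edgeR. It passed by DESeq2 (adjusted p = 0.00807), with no filter on low counts (0.0185) and with a replicate block (0.0498). Without siNS Eth replicate 2 it passed too (0.05 when rounded, under 0.05 before rounding). The range was 0.00807 to 0.218, and without siHP1g Dex replicate 1 the difference was −0.37 (adjusted p = 0.137). PRMT5 depletion gave log2 −0.07 (adjusted p = 0.453) with Eth and −0.16 (adjusted p = 0.0645) with Dex, the latter passing without siNS Dex replicate 2 (−0.20, adjusted p = 0.0427, range 0.0427 to 0.272). ITGA5 was lower in siPRMT5 than in siHP1g cells, by log2 −0.68 (adjusted p = 1.95e-08) with Eth and −0.35 (adjusted p = 0.000192) with Dex (−0.39 without siHP1g Dex replicate 1, still called).

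ITGAV, the α subunit shared by the vitronectin receptors (chr2:186590010-186680901, hg38, plus strand), moved in opposite directions with the 2 depletions. It stood at 121, 112 and 106 CPM in siNS Eth and 109, 110 and 106 CPM in siNS Dex. In siHP1g cells it stood at 68, 74.4 and 76.7 CPM with Eth and 102, 79 and 68.3 CPM with Dex. In siPRMT5 cells the values were 131, 139 and 165 CPM with Eth and 138, 174 and 151 CPM with Dex. All siHP1g libraries were below all siNS libraries of the same treatment, and all siPRMT5 libraries were above them. HP1γ depletion lowered ITGAV by log2 −0.63 (SE 0.112, adjusted p = 0.000101) with Eth and by −0.37 (adjusted p = 0.0143) with Dex. PRMT5 depletion raised it by log2 0.36 (adjusted p = 0.00988) with Eth and by 0.51 (SE 0.108, adjusted p = 0.000398) with Dex. The HP1γ call with Dex ended without siHP1g Dex replicate 2 (log2 −0.34, adjusted p = 0.0594) or replicate 3 (−0.25, 0.0894), in a range of 0.000163 to 0.0894. The PRMT5 call with Eth ended without siNS Eth replicate 3 (log2 0.31, adjusted p = 0.0557) or siPRMT5 Eth replicate 3 (0.25, 0.0883), in a range of 0.000151 to 0.0883. Set directly against each other, siPRMT5 cells were above siHP1g cells by log2 0.99 (adjusted p = 5.6e-08) with Eth and 0.89 (adjusted p = 2.26e-07) with Dex. Dex gave log2 0.19 (adjusted p = 0.401) in siHP1g and 0.09 (adjusted p = 0.66) in siPRMT5 cells, neither past the test. Of the siHP1g Dex libraries, replicate 1 was the highest. Without it the siHP1g response was log2 0.02 (adjusted p = 0.97, range 0.0871 to 0.97), HP1γ depletion with Dex gave −0.55 and siPRMT5 against siHP1g cells with Dex 1.07, the last 2 still called.

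ITGB3, a β subunit of vitronectin receptors (chr17:47253827-47313743, hg38, plus strand), was low, with 17 to 22 counts in siNS Eth. It stood at 2.43, 1.73 and 2.28 CPM in siNS Eth and 3, 2.18 and 4.08 CPM in siNS Dex. The siHP1g libraries gave 3.39, 5.42 and 4.05 CPM with Eth and 5.67, 4.99 and 4.79 CPM with Dex. The siPRMT5 libraries gave 6.44, 5.99 and 6.8 CPM with Eth and 4.3, 3.12 and 4.53 CPM with Dex. The siNS groups overlapped (log2 0.55, no test), all siPRMT5 Eth libraries were above all siNS Eth libraries, and all siPRMT5 Dex libraries were below all siPRMT5 Eth libraries. PRMT5 depletion raised ITGB3 2.99-fold with Eth (log2 1.58, SE 0.23, adjusted p = 4.1e-06), and with Dex the difference was 0.33 (adjusted p = 0.253). HP1γ depletion raised it 2.01-fold with Eth (log2 1.01, adjusted p = 0.00233) and 1.65-fold with Dex (log2 0.72, adjusted p = 0.0135). The latter call ended without siNS Dex replicate 2 (adjusted p = 0.0926) or siHP1g Dex replicate 1 (log2 0.64, 0.056), in a range of 0.00495 to 0.0926. In siPRMT5 cells Dex gave log2 −0.71 (SE 0.201, adjusted p = 0.015), short of the Dex threshold of 0.01 but past it with no filter on low counts (adjusted p = 0.00807, range 0.00807 to 0.121), and in siHP1g cells 0.26 (adjusted p = 0.547). The response in siPRMT5 cells differed from that in siNS cells by log2 −1.25 (SE 0.326, adjusted p = 0.0283). That call rested on single libraries: it ended without siNS Eth replicate 2 (adjusted p = 0.0619) or 3 (0.0589), siNS Dex replicate 1 (0.0618) or 3 (0.134), siPRMT5 Eth replicate 1 (0.0516) or 3 (0.051), or siPRMT5 Dex replicate 2 (0.0909), in a range of 0.00867 to 0.134. Against the siHP1g response the difference was log2 −0.97 (adjusted p = 0.082), which passed without siHP1g Eth replicate 2 (adjusted p = 0.0377, range 0.0377 to 0.242). Leaving out siHP1g Dex replicate 1 gave −0.89 for that difference and 0.19 for the siHP1g response, neither past the test. With Eth ITGB3 was higher in siPRMT5 than in siHP1g cells by log2 0.57 (adjusted p = 0.0191), which ended without siHP1g Eth replicate 1 (adjusted p = 0.0957) or 3 (0.0651) or siPRMT5 Eth replicate 3 (0.0608), in a range of 0.00618 to 0.0957. With Dex the order was the other way, at log2 −0.40 (adjusted p = 0.108), with groups that did not overlap but short of the test, and −0.31 without siHP1g Dex replicate 1. Of its merged exon bases, 33.2% are shared with an annotated readthrough gene on the same strand that has no symbol in the count files, so reads of either cannot be told apart there.

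ITGB5, which pairs with ITGAV (chr3:124761948-124901418, hg38, minus strand), was lowest in siNS Eth. Its means were 63 ± 1.86 CPM in siNS Eth and 77 ± 3.02 in siNS Dex (± SD, n = 3). In siHP1g cells the means were 82.2 ± 1.34 CPM with Eth and 90.1 ± 8.95 with Dex, and in siPRMT5 cells 79 ± 5.54 and 74.6 ± 5.48. Each siNS Eth library was below every library of the other Eth groups. Both depletions raised ITGB5 with Eth, HP1γ by log2 0.39 (SE 0.0802, adjusted p = 0.000596) and PRMT5 by 0.33 (SE 0.0808, adjusted p = 0.00197). With Dex, HP1γ depletion raised it by log2 0.22 (adjusted p = 0.0376), with overlapping groups, and PRMT5 depletion gave −0.05 (adjusted p = 0.671). The HP1γ call with Dex ended without siNS Eth replicate 3 (adjusted p = 0.0561), siNS Dex replicate 1 (0.112) or 2 (0.126), siHP1g Dex replicate 2 (0.124) or 3 (0.158), or siPRMT5 Eth replicate 1 (0.0529), with no filter on low counts (0.102) and with only the libraries of the contrast fitted (0.0833), in a range of 0.00517 to 0.158. The difference between the siPRMT5 and siNS responses to Dex was log2 −0.37 (adjusted p = 0.0638), which passed by DESeq2 (adjusted p = 0.0429) and without siHP1g Dex replicate 1 (0.0322) or siPRMT5 Eth replicate 3 (0.0431), in a range of 0.0322 to 0.194. With Dex ITGB5 was lower in siPRMT5 than in siHP1g cells by log2 −0.27 (adjusted p = 0.0056), a call that ended without siPRMT5 Dex replicate 2 (adjusted p = 0.0526, range 0.000513 to 0.0526). With siHP1g Dex replicate 1 left out, HP1γ depletion with Dex gave log2 0.31 and siPRMT5 against siHP1g cells with Dex −0.35, both still called.

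ITGB1, the β subunit that most α subunits here need (chr10:32887273-33005792, hg38, minus strand), fell with PRMT5 depletion. It stood at 626, 629 and 641 CPM in siNS Eth and 572, 610 and 594 CPM in siNS Dex. With siHP1g it was at 656, 652 and 685 CPM under Eth and 653, 618 and 620 CPM under Dex. With siPRMT5 it was at 375, 393 and 377 CPM under Eth and 305, 350 and 317 CPM under Dex. The highest siPRMT5 library was below the lowest library of the other groups. The fall with PRMT5 depletion was 1.66-fold with Eth (log2 −0.73, SE 0.0605, adjusted p = 3.69e-10) and 1.83-fold with Dex (log2 −0.87, SE 0.0606, adjusted p = 1.41e-11). HP1γ depletion gave log2 0.07 (adjusted p = 0.391) with Eth and 0.09 (adjusted p = 0.295) with Dex, neither past the test. Scaled by library size alone, the latter passed (log2 0.17, adjusted p = 0.0268, range 0.0268 to 0.669). Against siHP1g cells the siPRMT5 cells were lower by log2 −0.80 (adjusted p = 4.9e-11) with Eth and −0.96 (adjusted p = 1.43e-12) with Dex. Leaving out siHP1g Dex replicate 1 gave −0.93 for the latter and 0.07 for HP1γ depletion with Dex, with the same calls. Dex gave log2 −0.23 (adjusted p = 0.00719) in siPRMT5 cells, 1.18-fold and so under the limit.

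**Figure D3:**
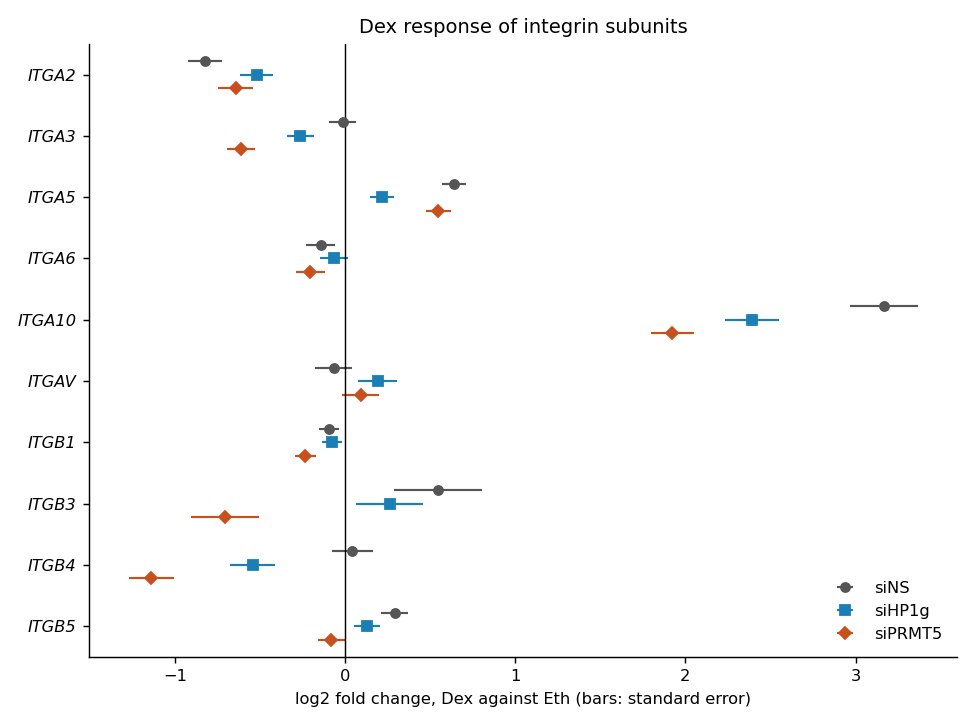
Log2 fold change of each subunit with Dex against Eth (horizontal axis) for the 10 subunits (vertical axis) in siNS, siHP1g and siPRMT5 cells; bars are standard errors. ITGA10 lies at 3.17, 2.39 and 1.92, and ITGB4 at 0.04, −0.54 and −1.14.

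Dex against Eth asks which subunits respond to the hormone under each siRNA, called where the adjusted p was under 0.01 and the change 1.5-fold or more. In siNS cells the members are described with no test and no count of calls, since their choice may have used this contrast. Past 1.5-fold, ITGA10 (8.98-fold) and ITGA5 (1.56-fold) were higher and ITGA2 (1.77-fold) lower, each in groups that did not overlap. The groups did not overlap either for ITGB5 (1.22-fold higher), ITGA6 (1.11-fold lower) and ITGB1 (1.07-fold lower). No share of all genes with such groups is given, so nothing is read from the lack of overlap. In the depleted cells ITGA10 was left out of the counts. In siHP1g cells edgeR called 0 of the other 9 members, against 1.01% higher and 0.660% lower of all genes. At an unadjusted p under 0.05 it gave 4, 1 higher and 3 lower, and DESeq2 called 0, while without siHP1g Dex replicate 1 ITGA2 passed. In siPRMT5 cells ITGA2, ITGA3 and ITGB4 fell, 3 lower and 0 higher of 9, against 2.75% and 2.69% of all genes. The 0 higher compares with 1 at an unadjusted p under 0.05, and DESeq2 called 3 in all. Without siPRMT5 Dex replicate 1 the 3 became 1, ITGB4.

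The difference between Dex responses asks whether a depletion altered the response, called at an adjusted p under 0.05. For siPRMT5 against siNS, ITGA3, ITGB3 and ITGB4 differed, each more negative in siPRMT5 cells, 3 lower and 0 higher of 9 members without ITGA10. Of all genes, 1.58% were called higher and 2.23% lower. At an unadjusted p under 0.05 edgeR gave 0 of the 9 higher and 4 lower, and DESeq2 called 4, with 716 of all genes. ITGA10 had a smaller response on the log2 scale in siPRMT5 cells (−1.24, SE 0.26) and in siHP1g cells (−0.78, SE 0.291), given with no test, beside its higher levels with Eth. For siHP1g against siNS edgeR called 0 of 9 members, where 0.118% of all genes were called higher and 0.281% lower. At an unadjusted p under 0.05 it gave 4 members, 1 higher and 3 lower. DESeq2 called 1, ITGA5, with 289 of all genes, and edgeR without siNS Eth replicate 2 called ITGA5 too. EdgeR called 0 without siHP1g Dex replicate 1 too, with 2 members at an unadjusted p under 0.05. For siPRMT5 against siHP1g edgeR called 0 of 9 members, against 1.29% higher and 0.811% lower of all genes. There 4 members, 1 higher and 3 lower, had an unadjusted p under 0.05, and DESeq2 called 1, ITGA5, with 353 of all genes. One member passed without siHP1g Eth replicate 2 (ITGB3), siHP1g Dex replicate 1 (ITGA3) or siPRMT5 Dex replicate 3 (ITGB4). The contrasts against siNS share the siNS libraries and are not independent of each other. Those libraries may have had a part in the choice of members, which the p-values and counts do not allow for.

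**Figure D4:**
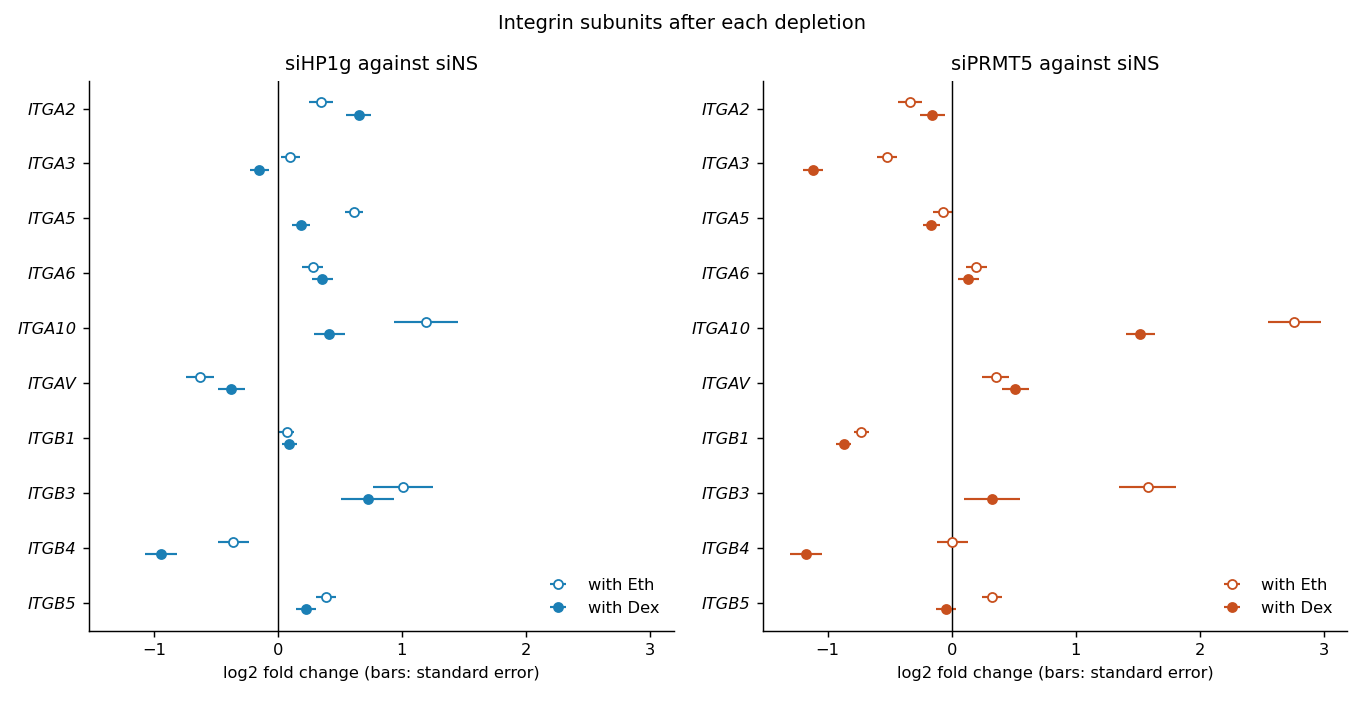
Log2 fold change of each subunit (horizontal axis) for the 10 subunits (vertical axis) in siHP1g against siNS cells (left) and siPRMT5 against siNS cells (right), with Eth (open) and Dex (filled); bars are standard errors. ITGB1 lies at −0.73 and −0.87 in siPRMT5 cells, and ITGAV is below 0 in siHP1g and above 0 in siPRMT5 cells.

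Depletion against siNS asks what each siRNA did to the subunits, called at an adjusted p under 0.05 over 9 members without ITGA10. With Eth, HP1γ depletion raised ITGA2, ITGA5, ITGA6, ITGB3 and ITGB5 and lowered ITGAV and ITGB4. That is 5 higher and 2 lower of 9, against 16.5% and 15.2% of all genes. Without siNS Eth replicate 3 the 7 became 4, as ITGA2, ITGA6 and ITGB4 no longer passed. With Dex, 4 members were higher (ITGA2, ITGA6, ITGB3 and ITGB5) and 2 lower (ITGAV and ITGB4), against 11.7% and 12.3% of all genes. Without siHP1g Dex replicate 1 the counts were 4 and 2 again, with ITGA5 in place of ITGB3. Scaled by library size alone, 63.8% of all genes called for HP1γ depletion with Eth and 69.2% with Dex were higher, where TMM gave 52.1% and 48.7%. PRMT5 depletion with Eth raised ITGAV, ITGB3 and ITGB5 and lowered ITGA2, ITGA3 and ITGB1, 3 and 3 of 9 against 20.6% and 21.6% of all genes. With Dex it raised ITGAV and lowered ITGA3, ITGB1 and ITGB4, 1 and 3 of 9 against 20.6% and 21.9%.

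Set directly against siHP1g cells, with no siNS library in the contrast, siPRMT5 cells had more ITGAV and less ITGA2, ITGA3, ITGA5 and ITGB1 under both treatments. With Eth, 3 of 9 members without ITGA10 were higher, ITGB3 and ITGB4 among them, and 4 lower, where 23.4% of all genes were higher and 25.0% lower. With Dex, 1 was higher and 6 lower, ITGA6 and ITGB5 among the latter, against 24.4% and 25.5% of all genes. Scaled by library size alone, 39.5% of the genes called with Dex were higher, where TMM gave 48.9%. Without siHP1g Dex replicate 1, 1 was higher and 5 lower, as ITGA6 no longer passed.

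Of the other 16 integrin genes, 5 could be tested (ITGA1, ITGAE, ITGAX, ITGB2 and ITGB8). The remaining 11, ITGA2B, ITGA4, ITGA7, ITGA8, ITGA9, ITGA11, ITGAD, ITGAL, ITGAM, ITGB6 and ITGB7, had at most 13 counts in any library. ITGA1, also a collagen receptor α subunit, stood at 13.8, 13.8 and 12.9 CPM in siNS Eth and 10.8, 16 and 14.5 CPM in siNS Dex. In siHP1g cells it stood at 20.2, 23.1 and 21.1 CPM with Eth and 25.1, 21.2 and 15.7 CPM with Dex, and in siPRMT5 cells at 12.1, 14.2 and 15.5 CPM and 22.2, 28.3 and 22.1 CPM. The siNS groups overlapped and the siPRMT5 groups did not. Dex raised ITGA1 1.74-fold in siPRMT5 cells (log2 0.80, SE 0.152, adjusted p = 0.000365). That response was larger than in siNS cells by log2 0.78 (SE 0.224, adjusted p = 0.0485) and than in siHP1g cells by 0.85 (SE 0.21, adjusted p = 0.027). Both calls rested on single libraries and on the processing. The former ended with DESeq2 size factors in edgeR (adjusted p = 0.05) and in 12 of the 18 fits that left out 1 library (adjusted p up to 0.136, range 0.00417 to 0.136), and held without siNS Dex replicate 2, siHP1g Dex replicate 1 or 3, siPRMT5 Eth replicate 3, or siPRMT5 Dex replicate 1 or 3. The latter ended with only the libraries of the contrast fitted (adjusted p = 0.0522) and in 7 of the 18, without siHP1g Eth replicate 2 or 3, siHP1g Dex replicate 2 or 3, siPRMT5 Eth replicate 1 or 2, or siPRMT5 Dex replicate 2 (range 0.000263 to 0.107), and was log2 1.03 without siHP1g Dex replicate 1. Of the exon bases of ITGA1, 13.2% are shared with other annotated genes. HP1γ depletion raised ITGA1 by log2 0.67 (adjusted p = 0.00158) with Eth and 0.60 (adjusted p = 0.00464) with Dex, the latter with overlapping groups and 0.43 without siHP1g Dex replicate 1 (adjusted p = 0.0459, range 6.21e-05 to 0.0497), and PRMT5 depletion raised it with Dex by 0.83 (adjusted p = 7.4e-05).

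ITGAE, a partner of ITGB7 on lymphocytes, had means of 49.9 ± 1.37 CPM in siNS Eth and 29.8 ± 1.14 CPM in siHP1g Eth, which did not overlap. HP1γ depletion lowered it by log2 −0.74 (SE 0.0886, adjusted p = 5.45e-07) with Eth and −0.32 (adjusted p = 0.00766) with Dex (−0.31 without siHP1g Dex replicate 1, still called). ITGB8, an ITGAV partner, had means of 2.02 ± 0.45 CPM in siPRMT5 Eth and 4.31 ± 0.685 CPM in siPRMT5 Dex. Dex raised ITGB8 2.09-fold in siPRMT5 cells (log2 1.06, adjusted p = 0.00351), past 0.01 except without siPRMT5 Eth replicate 1 (adjusted p = 0.0126), siPRMT5 Eth replicate 2 (0.0306) or siPRMT5 Dex replicate 3 (0.0211), in a range of 0.000676 to 0.0306. In siNS cells ITGB8 was also higher with Dex in groups that did not overlap, by log2 0.65 (adjusted p = 0.176), and in siHP1g cells it gave log2 0.39 (adjusted p = 0.525), or 0.07 without siHP1g Dex replicate 1, neither past the test. The siPRMT5 response was not called different from that in siNS cells (log2 0.41, adjusted p = 0.624) or in siHP1g cells (0.67, adjusted p = 0.57, and 0.998 without that library). With Dex, PRMT5 depletion raised ITGB8 by log2 0.75 (adjusted p = 0.0121), a call that ended without siNS Dex replicate 1 (adjusted p = 0.098) or siPRMT5 Dex replicate 3 (0.0581), in a range of 0.0067 to 0.098. The leukocyte subunits ITGB2 and ITGAX were low, ITGAX with 3 to 20 counts. With Eth, HP1γ depletion gave log2 −0.75 (adjusted p = 0.0136) for ITGB2, a fall that ended without siNS Eth replicate 2 (adjusted p = 0.15) or siHP1g Eth replicate 1 (0.0549), in a range of 0.00169 to 0.15. ITGAX stood at 0.442, 0.612 and 0.311 CPM in siNS Eth and 1.27, 0.935 and 1.8 CPM in siHP1g Eth, near the limit of the low-count filter, which it may have passed through the latter, so no test is given. Counts over the other 4, without ITGAX, were as follows by edgeR. With Dex, 0 passed in siNS cells, against 1.65% and 1.06% of all genes higher and lower, where 1 higher and 1 lower had an unadjusted p under 0.05, and 0 in siHP1g cells, against 1.01% and 0.660%, where 1 higher had one. In siPRMT5 cells 2 were higher, ITGA1 and ITGB8, and 0 lower, against 2.69% and 2.75%. HP1γ depletion raised 1 and lowered 2 with Eth, against 16.5% and 15.2%, and raised 1 and lowered 1 with Dex, against 11.7% and 12.3%. PRMT5 depletion gave 0 with Eth, against 20.6% and 21.6%, with 0 at an unadjusted p under 0.05, and raised 2 and lowered 0 with Dex, against 20.6% and 21.9%. DESeq2 called 0 where edgeR called 0, 2 for Dex in siPRMT5 cells and 2 for PRMT5 depletion with Dex, and at an unadjusted p under 0.05 edgeR gave 0 lower in both of the latter. The counts for Dex in siHP1g cells and for HP1γ depletion with Dex were the same without siHP1g Dex replicate 1.

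Among 24 tested matrix ligands of a list of 32, FN1, which encodes fibronectin, the ligand of the ITGA5 receptor, rose with Dex under each siRNA. Its means were 143 CPM in siNS Eth and 479 CPM in siNS Dex, 223 and 411 CPM in siHP1g cells, and 361 and 629 CPM in siPRMT5 cells. The rises were 3.34-fold (log2 1.74, adjusted p = 1.5e-13), 1.84-fold (log2 0.88, adjusted p = 1.24e-07) and 1.74-fold (log2 0.80, adjusted p = 1.41e-07). The ligand list was chosen with earlier results of these data known, and its p-values and counts do not allow for that choice. The response was smaller than in siNS cells by log2 −0.86 (adjusted p = 0.000872) in siHP1g and −0.94 (adjusted p = 8.53e-05) in siPRMT5 cells. With Dex, 1 of the 24 ligands was higher and 0 lower in siNS cells (median log2 0.18, all genes 0.00), where 1.65% and 1.06% of all genes were. At an unadjusted p under 0.05 edgeR gave 13 higher and 4 lower there. No share of all genes at that limit is given, so nothing is read from that count. DESeq2 called 1 ligand in all. In siHP1g cells 1 was higher and 2 lower (median −0.09), against 1.01% and 0.660% of all genes, and in siPRMT5 cells 3 were higher and 4 lower (median −0.15), against 2.69% and 2.75%. TNC, encoding tenascin C, fell with Dex in siHP1g (log2 −0.75, adjusted p = 1.29e-06) and siPRMT5 cells (−0.95, adjusted p = 2.01e-08). LAMB3, a chain of the laminin that ITGA3 and ITGA6 receptors bind, fell as well (log2 −0.67, adjusted p = 8.14e-06 and −0.92, adjusted p = 1.76e-08). Without siHP1g Dex replicate 1, 1 ligand was higher and 1 lower in siHP1g cells (median −0.01): FN1 gave log2 0.93, TNC −0.70 and LAMB3 −0.55, the last under the 1.5-fold limit. The siPRMT5 response differed from the siNS response for 8 ligands, 1 higher and 7 lower (median −0.39, all genes 0.00), against 1.58% and 2.23% of all genes. The siHP1g response differed for 1, FN1, against 0.118% and 0.281%, and without siHP1g Dex replicate 1 for FN1 again (log2 −0.81).

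With Eth, HP1γ depletion raised 11 ligands and lowered 5 (median 0.15, all genes 0.01), where 16.5% and 15.2% of all genes were called. PRMT5 depletion raised 14 and lowered 4 (median 0.40, all genes 0.00), against 20.6% and 21.6%. COL1A1, a chain of the collagen I that collagen receptors bind, rose 2.29-fold with HP1γ depletion (adjusted p = 3.02e-05) and 4.28-fold with PRMT5 depletion (adjusted p = 4.66e-10). TNC rose 2.59-fold with HP1γ depletion (adjusted p = 4.76e-11), and EDIL3, an ITGAV ligand, fell 3.05-fold with PRMT5 depletion (adjusted p = 2.09e-10). With Dex, HP1γ depletion raised 3 and lowered 9 ligands (median −0.10), against 11.7% and 12.3% of all genes, and 5 and 7 without siHP1g Dex replicate 1 (median −0.03). PRMT5 depletion with Dex raised 10 and lowered 7 (median 0.10), against 20.6% and 21.9%.

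Hemidesmosome partners of ITGA6 and ITGB4 were PLEC, DST, COL17A1 and CD151, all 4 tested. COL17A1, a transmembrane collagen, fell with Dex in siPRMT5 cells (log2 −0.78, adjusted p = 0.000148), as ITGB4 did, 1 lower and 0 higher of 4 there, against 2.75% and 2.69% of all genes (median −0.14, all genes 0.00). EdgeR called 0 of the 4 in siNS cells and 0 in siHP1g cells, where 1.65% and 1.06% and 1.01% and 0.660% of all genes were higher and lower, with 2 and 1 at an unadjusted p under 0.05, and DESeq2 called 0 in both. HP1γ depletion raised COL17A1 by log2 0.66 (adjusted p = 0.00035) with Eth and 0.87 (adjusted p = 4.15e-05) with Dex, the 1 partner called in each (medians 0.24 and −0.19), against 16.5% and 15.2% of all genes higher and lower with Eth and 11.7% and 12.3% with Dex. The latter rise, without siHP1g Dex replicate 1, was 0.98, again the 1 partner called (median −0.11), and edgeR called 0 for Dex in siHP1g cells, with 0 at an unadjusted p under 0.05. PRMT5 depletion raised 2 and lowered 1 partner with Eth (median 0.33), against 20.6% and 21.6% of all genes. With Dex it lowered 1, CD151, a tetraspanin bound to laminin receptors (log2 −0.69, adjusted p = 1.98e-05, median −0.06), and raised 0, against 21.9% and 20.6%. For each of the 3 differences in Dex response edgeR called 0 of the 4 partners, with 1 at an unadjusted p under 0.05 in each, and DESeq2 called 0. Of all genes, 0.118% and 0.281% were called higher and lower for siHP1g against siNS, 1.58% and 2.23% for siPRMT5 against siNS and 1.29% and 0.811% for siPRMT5 against siHP1g. Leaving out siHP1g Dex replicate 1 gave 0 called as well in the 2 differences that use siHP1g cells, with 1 and 2 at an unadjusted p under 0.05.

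Of 41 integrin adaptor and signalling genes, 38 were tested. TNS2, a tensin that links β tails to actin, rose with Dex in siNS (log2 1.23, adjusted p = 3.61e-10), siHP1g (0.71, adjusted p = 6.46e-06) and siPRMT5 cells (0.85, adjusted p = 5.52e-08). Like the ligands, the adaptors were listed with earlier results of these data known, and their p-values and counts do not allow for that choice. In all, 4 adaptors were higher with Dex in siNS cells (median 0.12), 2 in siHP1g cells (median −0.03) and 5 in siPRMT5 cells (median −0.01), and 0 were lower, where 1.65% and 1.06% of all genes were called higher and lower in siNS cells, 1.01% and 0.660% in siHP1g and 2.69% and 2.75% in siPRMT5 cells. At an unadjusted p under 0.05 edgeR gave 13, 9 and 9 higher and 0, 8 and 10 lower, and DESeq2 called 4, 2 and 5 in all. VCL, encoding vinculin, rose in siPRMT5 cells (log2 0.82, adjusted p = 9.8e-11), more than in siHP1g cells by 0.61 (adjusted p = 7.23e-05). Without siHP1g Dex replicate 1 that difference was 0.64, and 2 adaptors were higher and 0 lower with Dex in siHP1g cells (median −0.01), TNS2 at 0.75 among them. PRMT5 depletion raised 13 and lowered 8 adaptors with Eth (median 0.09), against 20.6% and 21.6% of all genes. With Dex it raised 11 and lowered 16 (median −0.17, all genes 0.00), against 20.6% and 21.9%. TNS3, another tensin, rose 2.12-fold with Eth (adjusted p = 1.71e-09). CRK, an adaptor that binds paxillin, fell 2.81-fold with Eth (adjusted p = 2.75e-06) and 3.88-fold with Dex (adjusted p = 1.88e-08). The kinase-like ILK, which binds β tails, fell 2.01-fold with Eth (adjusted p = 9.68e-10) and 2.62-fold with Dex (adjusted p = 2.87e-12). PXN, encoding the scaffold paxillin, fell 2.17-fold with Dex (adjusted p = 6.59e-13), and FERMT1, a kindlin that activates integrins, fell 2.31-fold with Eth (adjusted p = 1.15e-10). HP1γ depletion raised 11 and lowered 6 adaptors with Eth (median 0.11), against 16.5% and 15.2% of all genes, and raised 5 and lowered 14 with Dex (median −0.02), against 11.7% and 12.3%. Leaving out siHP1g Dex replicate 1, it raised 4 and lowered 12 with Dex (median −0.01). ACTN4, an actin crosslinker, fell under both treatments (log2 −0.86, adjusted p = 4.79e-08 and −1.12 (adjusted p = 7.05e-10); −1.03 with Dex without that library), and TNS3 rose with Eth (log2 0.80, adjusted p = 8.44e-07). The Dex response of 3 adaptors was lower in siPRMT5 than in siNS cells and of 0 higher, against 2.23% and 1.58% of all genes, PXN among them (log2 −0.43, adjusted p = 0.00789), with 5 higher and 15 lower at an unadjusted p under 0.05 and 4 called by DESeq2. For siHP1g against siNS edgeR called 0 adaptors, against 0.118% and 0.281% of all genes higher and lower. DESeq2 called 5 adaptors there, and 289 of all genes. At an unadjusted p under 0.05 edgeR gave 17 adaptors, 1 higher and 16 lower. No share of all genes at that limit is given, so nothing is read from that count. Without siHP1g Dex replicate 1 edgeR called 0 adaptors, with 12 at an unadjusted p under 0.05.

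The genes whose pattern over the 18 libraries was most like that of ITGA10, by Pearson's r of log2 CPM among the 11410 tested genes that averaged 5 CPM or more, were HELZ2 (0.97), AL713998.1 (0.97), ZNF608 (0.97), FN1 (0.97) and RHOB (0.96). HELZ2 had means of 27.9 CPM in siNS Eth, 65.3 CPM in siNS Dex, 64.8 CPM in siPRMT5 Eth and 129 CPM in siPRMT5 Dex. The r is a description over libraries that fall in 6 groups, with no p. Within the family ITGA10 had its highest r with ITGB8 (0.742) and its lowest with ITGA2 (−0.768).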

How the data were processed

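The authors mapped reads to hg38 with Bowtie2 2.4.2 and made HTSeq 0.9.1 counts per gene symbol. The deposited raw count files, 1 per library, were used here, and the authors' table of DESeq2 comparisons was not. Read length, strand setting and annotation are not given, so reads of overlapping genes may be counted or dropped in ways that cannot be checked. Genes with low counts were removed by edgeR's filterByExpr (15298 of 60642 kept), counts were scaled by TMM, and 1 quasi-likelihood fit over the 6 groups (12 residual degrees of freedom) gave each contrast, two-sided, with Benjamini-Hochberg adjustment over all genes tested. Libraries of the same replicate number in different groups were for the most part not alike (r from −0.186 to 0.315 over 45 pairs, median 0.00663, 6 over 0.1), so the fit did not pair them. Members and lists were chosen with earlier results of these data known, and the p-values and counts do not allow for that choice. Counts at an unadjusted p under 0.05 are given with no share of all genes at that limit, so nothing is read from them. Of all genes, DESeq2 called 404 for Dex in siNS, 243 in siHP1g and 808 in siPRMT5 cells. It called 6107 for PRMT5 depletion with Eth and 6193 with Dex. For differences in Dex response it called 289 for siHP1g and 716 for siPRMT5 against siNS, and 353 for siPRMT5 against siHP1g. From each list and contrast at most 4 called genes with the largest change at a mean of at least 5 CPM could be named. Positions come from GENCODE and start windows from RefSeq.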

Additional observations from a re-analysis of the deposited data

Results flagged for a closer look

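These results are listed because a subunit's Dex response differed by test between siRNA groups. In siPRMT5 against siNS cells the response differed by log2 −0.60 (adjusted p = 0.00296) for ITGA3, −1.25 (adjusted p = 0.0283) for ITGB3, −1.18 (adjusted p = 0.000372) for ITGB4 and 0.78 (adjusted p = 0.0485) for ITGA1. In siPRMT5 against siHP1g cells it differed by log2 0.85 (adjusted p = 0.027) for ITGA1. The ITGA3 and ITGB4 calls held in every fit that left out 1 library, and the ITGB3 and ITGA1 calls did not. The ITGA1 call against siNS cells also ended with DESeq2 size factors in edgeR (adjusted p = 0.05, range 0.00417 to 0.136), and that against siHP1g cells with only the libraries of the contrast fitted (0.0522, range 0.000263 to 0.107). Their causes were not tested.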

How the results depend on the processing

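None of the 72 integrin log2 fold changes past the limits changed sign in any alternative. They include changes given with no test, so the count is a description. Those are changes of ITGA10, of ITGA2 and ITGA5 with Dex in siNS cells, and of ITGAX after HP1γ depletion with Eth. Of the 108 not past the limits, 26 changed sign, ITGA3 and ITGB4 with Dex in siNS cells among them. Each of the 26 was within 0.275 of 0 on the log2 scale when all libraries were used. Asking for a fold change of at least 2 left 2 members called for Dex in siPRMT5 cells, with 373 of all 15298 genes. In siNS cells ITGA10 alone of the members was past that fold, as a description. An adjusted p under 0.05 with no fold limit gave more by construction. It called 4 members and 849 of all genes in siHP1g cells, and 7 members and 2449 of all genes in siPRMT5 cells. For siHP1g against siNS responses DESeq2 called 1 member, the fit with no filter on low counts 2 (ITGA5 and ITGB4), and a replicate block 1 (ITGA5). For siPRMT5 against siHP1g responses DESeq2 called 1. The counts for Dex and for siPRMT5 against siHP1g include ITGA10, which a rise with Dex chose. The causes were not tested. Leaving out 1 library gave 1 to 2 members for Dex in siHP1g and 2 to 5 in siPRMT5 cells, 4 to 7 for HP1γ depletion with Eth, and 0 to 1 for the siHP1g against siNS and the siPRMT5 against siHP1g responses. Of all genes it gave 209 to 256 for Dex in siHP1g and 741 to 853 in siPRMT5 cells. For HP1γ depletion with Eth these were 3749 to 5249, and for siPRMT5 against siHP1g responses 236 to 384. All genes called for siHP1g against siNS responses were 61, 289 by DESeq2, 374 with no filter, 94 with the block and 20 to 186 leaving out 1 library; for siPRMT5 against siNS they were 582, and 319 to 897. Scaling by library size alone raised the share of called genes that were higher after HP1γ depletion from 52.1% to 63.8% with Eth and from 48.7% to 69.2% with Dex, and lowered it for siPRMT5 against siHP1g cells from 48.4% to 42.9% with Eth and from 48.9% to 39.5% with Dex, while all-gene medians moved by under 0.1. Depth limits ITGA10 in siNS Eth, ITGB3, ITGB8 and ITGAX, with as few as 11, 17, 12 and 3 counts. ITGAX had no value with at least 10 counts in every library, nor in most contrasts with their libraries alone.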
